A study of Mus musculus with 12 samples.

Results

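Cytosolic ribosomal protein genes were examined as a set for binding of the histone acetyltransferase MOF (KAT8) in visceral white adipose tissue (WAT) of the mouse. The set holds the autosomal protein-coding genes of GENCODE mouse release M21 whose symbol is Rpl, Rps or Rplp followed by a number, plus Rpsa. Kinases named Rps6k, the binding protein Rps19bp1 and symbols containing -ps were left out. This rule gave 81 genes of 20807 autosomal protein-coding genes, and 32 of the 81 encode proteins of the small subunit and 49 of the large subunit. Of these, 8 are paralogues with a symbol ending in l, l1 or rt, which leaves 73 core genes, 30 of the small and 43 of the large subunit. The set lies on 18 of the 19 autosomes.

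MOF-bound DNA was recovered by chromatin immunoprecipitation and sequenced (ChIP-seq) from C57BL/6 mice that were wild type (Mof+/+) or heterozygous for Mof (Mof+/-). All were 8 weeks old and fed a standard diet. The labels give 12 libraries, with 2 replicates in each genotype of ChIP for MOF, of ChIP for histone H3 and of input chromatin. The values analysed here come from 2 peak lists, 1 for each genotype, so that no replicate spread exists and intervals cover counting error only. Neither list names its libraries, and the way replicates entered a list is not stated in the sources used here. The design text names 3 heterozygous animals, while the labels give 2 replicates and the reporting summary 2 littermates of each genotype, and the MOF antibody in the labels differs from those in that summary.

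The ribosome joins a small subunit, which reads the messenger RNA, with a large subunit, which links amino acids. Each subunit is built from ribosomal RNA and a fixed set of ribosomal proteins, most of them present once in each ribosome, and these genes are transcribed in almost every cell. Their genes are short, rich in introns and often house small nucleolar RNAs (snoRNAs), and many start within a run of pyrimidines that marks their messenger RNA for translational control by mTOR. MOF acetylates lysine 16 of histone H4 as part of the MSL complex and also acts in the NSL complex, which is known for binding promoters of housekeeping genes.

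The promoters that the results turn on are shown from 100 bp before to 20 bp after the principal start site, on the strand of the gene, from GRCm38 patch 6. Rpl41 had the highest MOF enrichment of the large subunit genes and Rpl22l1 the lowest of the set in Mof+/+, Rpl30 was the member with a Mof+/- peak, Rpl13 and Rpl22 were the core members without a Mof+/+ peak, and Rplp0 encodes the anchor of the ribosomal stalk. Capitals mark the pyrimidine tract near the start, the Sp box GGGCGG, the CCAAT box and the TATAA box, each on either strand except the tract, so that a motif on the opposite strand appears as its reverse complement.
Rpl41 (chr10:128549285-128549405, minus strand): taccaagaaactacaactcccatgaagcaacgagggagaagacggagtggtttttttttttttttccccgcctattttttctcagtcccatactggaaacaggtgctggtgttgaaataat
Rpl22l1 (chr3:28805336-28805456, plus strand): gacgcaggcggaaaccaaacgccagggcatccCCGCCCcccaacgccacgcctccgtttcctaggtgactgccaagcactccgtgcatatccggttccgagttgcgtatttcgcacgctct
Rpl30 (chr15:34443620-34443740, minus strand): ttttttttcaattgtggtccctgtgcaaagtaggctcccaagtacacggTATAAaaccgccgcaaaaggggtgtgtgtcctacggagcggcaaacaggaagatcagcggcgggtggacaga
Rpl13 (chr8:123102250-123102370, plus strand): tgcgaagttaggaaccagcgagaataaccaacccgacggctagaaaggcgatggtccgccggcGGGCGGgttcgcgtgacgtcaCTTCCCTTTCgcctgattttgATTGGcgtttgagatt
Rpl22 (chr4:152325767-152325887, plus strand): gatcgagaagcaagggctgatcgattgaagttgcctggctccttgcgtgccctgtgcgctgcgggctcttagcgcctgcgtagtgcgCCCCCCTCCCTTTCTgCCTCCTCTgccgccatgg
Rplp0 (chr5:115559367-115559487, plus strand): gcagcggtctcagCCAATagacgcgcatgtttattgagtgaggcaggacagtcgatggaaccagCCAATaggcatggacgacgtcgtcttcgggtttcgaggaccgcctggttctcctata
The tract is present in Rpl13 and Rpl22 and absent from the others shown, but over the whole set members with and without it had peaks at like shares, 28 of 30 and 47 of 51.

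In Mof+/+ WAT, nearly the whole set carried a MOF peak at its promoter. A peak lay within 1 kb of an annotated start site in 75 of the 81 genes, a share of 92.6% (Wilson 95% interval 84.8 to 96.6), while the share among all autosomal protein-coding genes was 42.7%. Of the core genes, 71 of 73 had a peak (97.3%, 90.5 to 99.2). The small subunit was covered in full, 30 of 30 core genes, and 41 of 43 core genes of the large subunit had a peak. Of the paralogues, 4 of 8 had one. In Mof+/- WAT the picture differed, since 1 of the 81 genes, Rpl30, had a peak within 1 kb of a start (1.23%, 0.218 to 6.67), and the share of all genes was 1.37%. The share of the set thus stood above that of all genes in the Mof+/+ list and near it in the Mof+/- list.

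**Figure D1:**
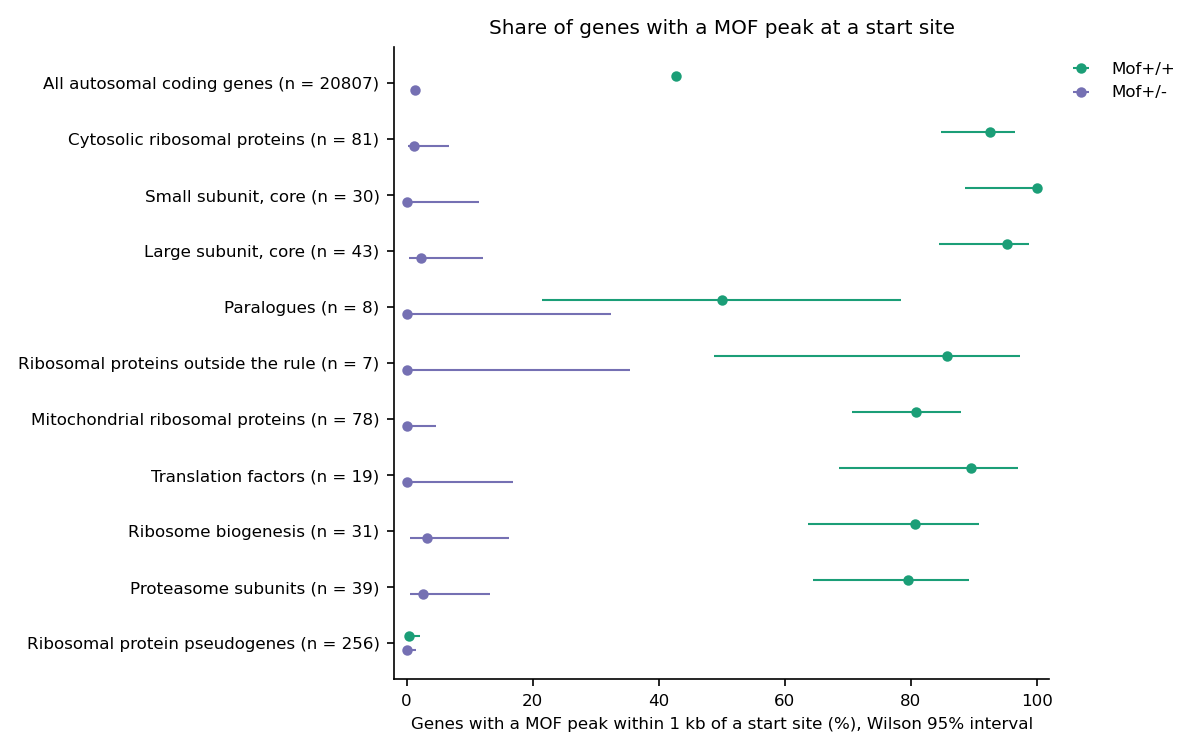
Share of genes (%) with a MOF peak within 1 kb of a start site for 11 gene groups in the Mof+/+ and Mof+/- peak lists, with the number of genes in each group and Wilson 95% intervals. The cytosolic ribosomal protein genes reach 92.6% in Mof+/+ and 1.23% in Mof+/-, and the pseudogenes stay at 0.391% and 0.

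The tissue check sets the frame for these shares. Adipocyte markers had Mof+/+ peaks within 1 kb of a start in 6 of 10 genes (Wilson 95% interval 31.3 to 83.2%), B cell markers in 7 of 8 (52.9 to 97.8%) and T cell markers in 6 of 8 (40.9 to 92.9%), while macrophage and endothelial markers had 1 of 8 each (2.24 to 47.1%). Of the 6 adipocyte marker peaks, 1 covered a start and 2 had a summit within 500 bp of one. For B cell markers these were 5 and 4 of 7, and for T cell markers 5 and 3 of 6. Over all genes with a peak the shares were 74.2% and 83.8%. Of these intervals, that of the B cell markers alone lay above the 42.7% of all genes. Peaks at lymphocyte markers were thus listed in this tissue, and in a bulk sample a larger number of cells of a type and more MOF per cell cannot be told apart. The part of the lymphocytes in the values of the ribosomal protein genes was not tested.

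Enrichment at the set was even and of moderate size. Fold enrichment is the ratio of fragments at the summit of a peak to a background, each raised by 1. This peak caller takes as background the larger of the local input and a genome-wide level. The strongest peak of each gene was taken. The median over the 75 genes was 4.39 (quartiles 3.79 and 4.87), and the median over all 8894 genes with a peak was 3.98. Among peaks with a q-value of at most 0.001, the medians were 4.41 over 73 members and 4.40 over all genes, so the difference was not seen among the stronger peaks. Of the 75, 45 lay above the median of all genes, 6 were in the top decile of all genes and 1 was in the bottom decile. The number of fragments behind a value was small, from 15 to 32 with a median of 20.0, and the intervals were accordingly wide. Core genes of the small subunit (median 4.30, quartiles 3.88 and 5.10, n = 30) and of the large subunit (median 4.41, quartiles 3.92 and 4.75, n = 41) overlapped over most of their range.

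**Figure D2:**
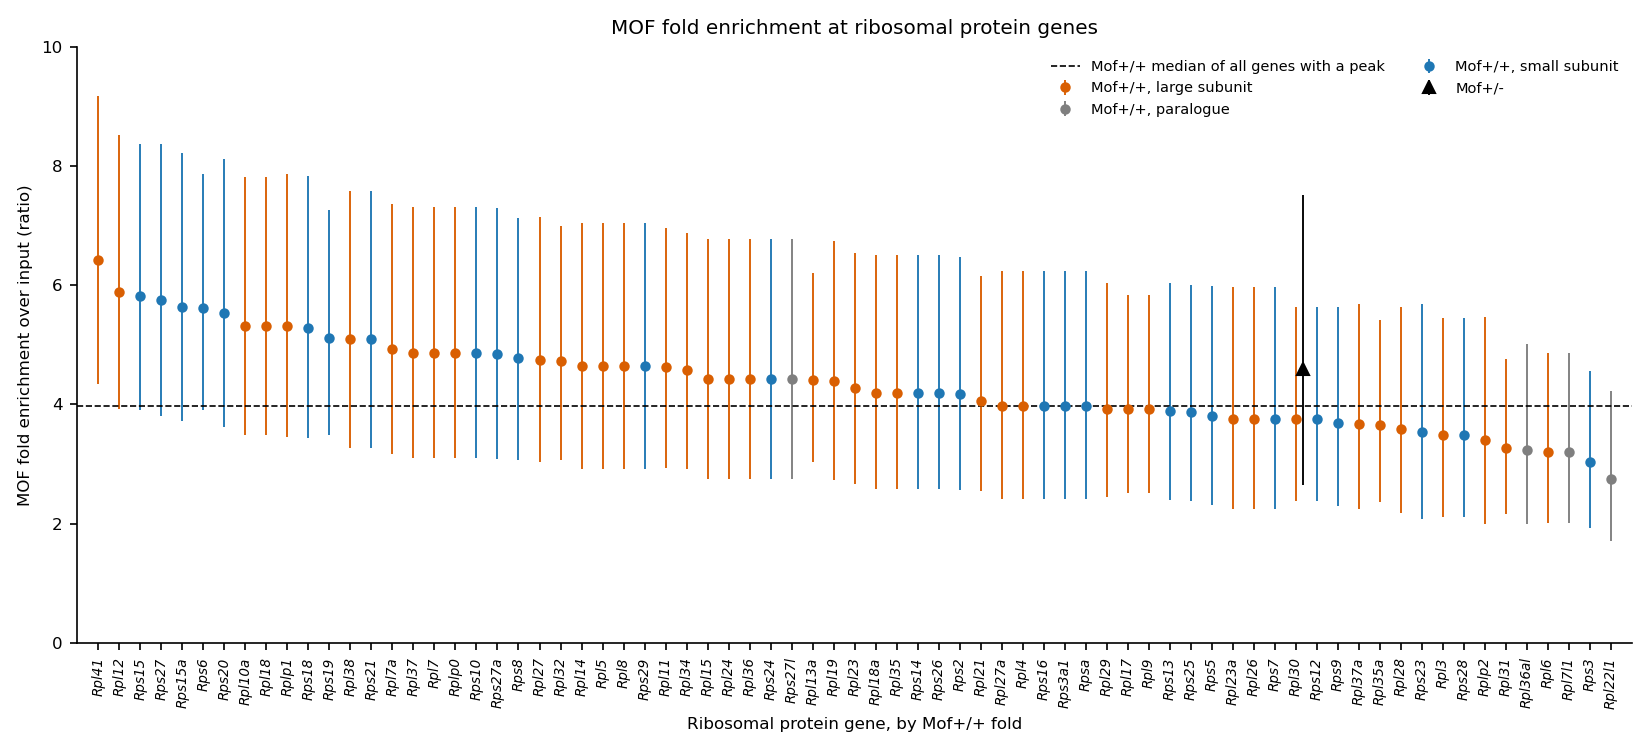
MOF fold enrichment (ratio to the background, the larger of local input and a genome-wide level) of the strongest promoter peak of 73 ribosomal protein genes in Mof+/+, ordered by fold, with exact Poisson 95% intervals on the fragments at the summit, and of Rpl30 in Mof+/- (triangle). The values drawn run from 6.42 at Rpl41 to 2.75 at Rpl22l1 around the all-gene median of 3.98 (dashed line), and most intervals overlap.

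Among proteins of the small subunit, Rps15, which helps the small subunit leave the nucleus, had a fold of 5.82 (exact Poisson 95% interval 3.91 to 8.37), Rps27 one of 5.75 (3.80 to 8.38) and Rps15a one of 5.64 (3.73 to 8.22). Rps6, whose protein is the classical substrate of S6 kinase, had the most fragments of the set, 32, and a fold of 5.62 (3.90 to 7.87). Rps20 reached 5.53 (3.62 to 8.12). These intervals overlap, so the order of these genes is within counting error.

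Rps19, the gene first linked to Diamond-Blackfan anaemia, had 3 peaks at its starts, the strongest at 5.11-fold (3.48 to 7.27). Rps27a, which encodes a ribosomal protein fused to ubiquitin, had 4.85 (3.09 to 7.30), and this peak also lay at the start of the head-to-head gene Clhc1. Rpsa, also known as the laminin receptor, had 3.98 (2.41 to 6.24) in a narrow peak of 381 bp. For Rps14, whose loss contributes to the anaemia of the 5q- syndrome, the strongest peak (4.20, 2.58 to 6.51) lay by a distant annotated start next to that of Ndst1, and at the principal start of the gene the fold was 3.44 (2.05 to 5.46, 16 fragments). Rps3, which lines the entry of the messenger RNA channel, was the lowest of the small subunit with 3.03 (1.93 to 4.56).

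Rps3 also shows how far a fold depends on the background. It had 21 fragments at its summit over a background of 6.26, while Rplp0 had 21 fragments over 3.52 and a fold of 4.87. In all, 11 members had 21 fragments, and their folds ran from 3.03 to 4.87. The background was 3.52, also the lowest value in the whole Mof+/+ list, in 35 of the 75 members, whose median fold was 4.42 from a median of 19.0 fragments. The other 40 members had a median fold of 3.92 from a median of 21 fragments, so that the group with the lower folds had more fragments over a higher background.

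Among proteins of the large subunit, Rpl41, a very short basic peptide, led with 6.42 (4.34 to 9.17, 28 fragments). Its peak, 2333 bp wide, also reached the start of Zc3h10. Rpl12, which forms the base of the stalk, followed with 5.88 (3.92 to 8.52) and shared its peak with the head-to-head gene Lrsam1. Rpl10a and Rpl18 both had 5.32 (3.48 to 7.81). The peak of Rpl18 lay by the start of Sphk2, and at its own principal start Rpl18 had 4.42 (2.81 to 6.65). Rpl5 and Rpl11, which bind 5S ribosomal RNA and hold the p53 regulator MDM2 when ribosome assembly is disturbed, had 4.65 (2.92 to 7.05) and 4.62 (2.94 to 6.96). Rpl3, a protein near the peptidyl transferase centre, had 3.48 (2.11 to 5.45) by a distant annotated start next to that of Syngr1 and 3.09 (1.82 to 4.97) at its principal start. Rpl6 was the lowest core gene of this subunit with 3.20 (2.01 to 4.86).

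The stalk proteins, which recruit elongation factors to the ribosome, are encoded by Rplp0, Rplp1 and Rplp2. All had a Mof+/+ peak and none a Mof+/- peak. Rplp1 had 5.31 (3.45 to 7.86), Rplp0 had 4.87 (3.10 to 7.32) and Rplp2 had 3.40 (2.00 to 5.47). These 3 intervals overlap, so the genes of the stalk do not differ beyond counting error.

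The 6 genes without a Mof+/+ peak were Rpl13 and Rpl22 of the core and the paralogues Rpl10l, Rpl39l, Rpl3l and Rps27rt. Rpl13 and Rpl22 both have promoters dense in CpG dinucleotides, 70 and 73 within 500 bp of the start, above the median of the set (67). The nearest Mof+/+ peak lay 36495 bp from a start of Rpl13 and 27977 bp from a start of Rpl22, which encodes a protein known for its role in T cell development. Rpl10l and Rpl39l are known from the testis and Rpl3l from heart and skeletal muscle. Their nearest Mof+/+ peaks lay 1208300 bp, 241669 bp and 5347 bp away, and that of Rps27rt 48907 bp away.

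Of the paralogues with a peak, Rps27l, which is known as a p53 target, had 4.42 (2.75 to 6.78), close to the median of the core. Rpl36al had 3.24 (1.99 to 5.02) at a start shared with the head-to-head gene Mgat2, Rpl7l1 had 3.20 (2.01 to 4.86), and Rpl22l1, the paralogue of Rpl22, had 2.75 (1.71 to 4.22), the lowest of the set. Rpl22l1 thus had a peak where Rpl22 had none, although the fold was low.

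Many copies of ribosomal protein genes lie elsewhere in the genome as processed pseudogenes, which carry the coding sequence without the promoter. Of 256 autosomal genes of this family with -ps in the symbol, 1 had a Mof+/+ peak within 1 kb of its start (0.391%, 0.069 to 2.18) and none had a Mof+/- peak. That gene, Rpl30-ps6, named here because it was the only one, had a summit at -1021 bp, upstream of its start, and a fold of 3.76. The effect of reads that map to more than 1 copy, on these genes and on the members without a peak, was not tested.

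Peaks at the set were somewhat broader in the median than at other promoters, with overlapping ranges. The median width was 1017 bp (quartiles 670 and 1406), against 839 bp (513 and 1327) over all genes with a peak. Among peaks with a q-value of at most 0.001 the medians were closer, 1051 bp and 970 bp, and members whose peak lay near no other coding start had a median of 916 bp. Ribosomal protein genes are short, with a median length of 3368 bp, so that the peak covered a median of 21.6% of the gene, against 2.11% over all genes with a peak. Among the widest was that of Rpl13a, 9456 bp with a fold of 4.41 (3.04 to 6.20), whose summit lay past the end of the gene and 2772 bp from its nearest start, so that the value cannot be assigned to Rpl13a alone. Rps9 had a peak of 2824 bp with a fold of 3.68 (2.29 to 5.64), whose summit lay inside the gene while the peak ran past its end, and another of 3.55 (2.12 to 5.63) at its principal start. The peak of Rpl12 was 2476 bp wide and that of Rpl10a 2369 bp. Of the 75 genes, 58 had 1 peak at their starts and 17 had more, at most 3.

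The summit lay mostly just inside the gene. Relative to the nearest annotated start, the median offset was 74 bp downstream (quartiles -16.5 and 202), against 59 bp over all genes with a peak. When the peak with the nearest summit was taken for each gene, the order turned, 49 bp against 56 bp, so the set and all genes are not told apart by this offset. In the set, 53 summits lay downstream and 22 upstream. The peak covered a start in 68 of the 75 genes (90.7%), against 74.2% of all genes with a peak. The set has more annotated starts than other genes, a median of 6.0 against 3.0, which draws the nearest start closer to any summit. Measured from the principal start, the median offset of the same peaks was 228 bp (quartiles 103.5 and 362), and 82.7% of summits lay downstream, against a median of 146 bp and 65.7% over all genes with a peak. Placed on the principal transcript, 44 summits fell in an intron, 11 in coding sequence and 6 in an untranslated region, while 13 lay upstream of its start and 1 past its end. Some of those 13, such as Rps14 and Rpl3, still lay inside the span of the gene, which longer transcripts extend.

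**Figure D3:**
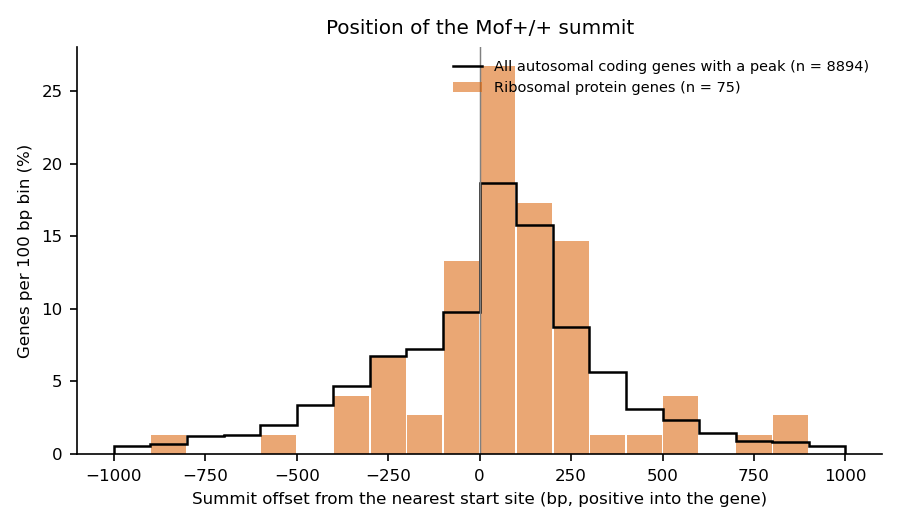
Distance (bp) from the nearest annotated start to the Mof+/+ summit, in bins of 100 bp, as a percentage of 75 ribosomal protein genes (bars) and of 8894 autosomal coding genes with a peak (black line). Both peak in the first 100 bp inside the gene, with 26.7% of ribosomal protein genes and 18.7% of all genes there.

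**Figure D4:**
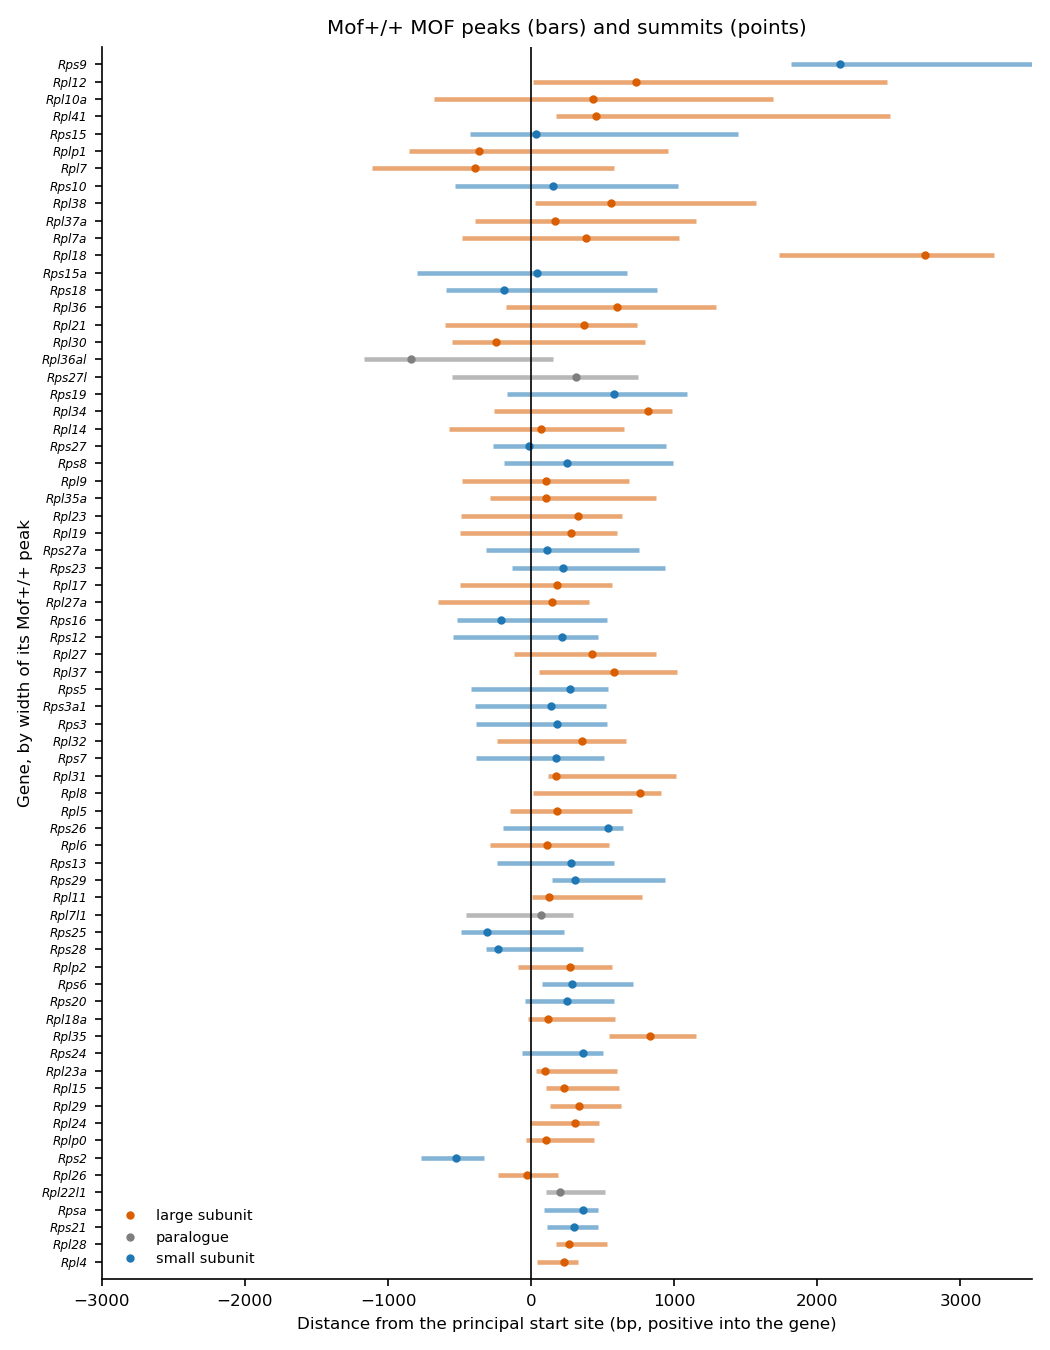
Extent (bar) and summit (point) of the strongest Mof+/+ peak of 70 ribosomal protein genes relative to the principal start (bp, positive into the gene), ordered by width. Summits cluster just right of the start, the bar of Rps9 runs past the axis, and 3 genes whose summit lies beyond it (Rpl13a, Rps14 and Rpl3) are not drawn.

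A part of the set shares its peak with a neighbour. In 21 of the 75 genes the peak also lay within 1 kb of the start of another protein-coding gene, and 11 had a principal start of an opposite gene within 1 kb. The 75 genes had 74 distinct peaks, since 1 peak served a pair of members. In the other 54 genes the peak lay near no other coding start. Counting only those, 66.7% of the set had a peak, against 31.6% of all genes, and the median fold was 4.24 (this count was chosen after seeing the data). With shared peaks included the shares were 92.6% and 42.7%, so sharing lowered both and is not particular to the set. The position of the summit cannot assign a shared peak to 1 of its genes.

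Many of these genes host snoRNAs in their introns, which guide the modification of ribosomal RNA. Annotated snoRNAs, 57 in all, lay inside 28 of the 81 genes. Of the hosts, 27 of 28 had a Mof+/+ peak with a median fold of 3.98, and of the other genes 48 of 53 had one with a median fold of 4.42. Rpl4, named here after its values were seen, houses 5 snoRNAs, the most in the set, and had the narrowest peak, 290 bp, with a fold of 3.98 (2.41 to 6.24). Rpl13 was the host without a peak.

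Promoter sequence was compared over the window from 250 bp before to 50 bp after the principal start, on both strands, with motifs counted separately and free to overlap. A run of at least 8 bases of C or T, with at least 1 C, was found on the strand of the gene in 37.0% of the set and in 15.7% of all genes. Only bases within 20 bp of the principal start counted, so runs cut short by that limit were missed. Among other genes with a Mof+/+ peak, 14.7% had the tract. The ETS motif CCGGAAG was found in 32.1% of the set, in 11.5% of all genes and in 19.4% of other genes with a peak. It was also in 37.2% of mitochondrial ribosomal protein genes and 33.3% of proteasome subunit genes. The CGCGAGA element was in 21% of the set, in 3.46% of all genes and in 6.12% of other genes with a peak. The Sp box GGGCGG was in 49.4% of the set, in 46.3% of all genes and in 66.0% of other genes with a peak. In the same order, the TATAA box was in 32.1%, 22.6% and 12.8%, the CCAAT box in 29.6%, 38.2% and 38.2% and the YY1 motif AAGATGGCG in 6.17%, 1.89% and 3.58%. The NRF1 motif GCATGCGC was in 4.94%, 3.47% and 5.70% and the E-box CACGTG in 11.1%, 7.79% and 10.3%. A match of letters is a description of the sequence and does not show that a factor binds there.

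In the set, peaks were present with and without these letters. Members with a tract had a median fold of 4.60 and those without 4.06, while other genes with a peak had 3.98 in both cases. Of other genes, 40.0% with and 43.0% without the tract had a Mof+/+ peak. Among other genes the share did differ with several motifs, being 72.6% with and 38.7% without the ETS motif, 60.7% and 26.9% for the Sp box, 76.8% and 41.3% for CGCGAGA, 81.2% and 41.8% for the YY1 motif and 70.0% and 41.6% for the NRF1 motif, and lower with the TATAA box, 24.0% against 47.9%. In the set, peaks were at 25 of 26 members with the ETS motif and 50 of 55 without, and at 24 of 26 with the TATAA box and 51 of 55 without. All 17 members with CGCGAGA had a peak, with a median fold of 3.98, and 58 of 64 without it had one, with a median fold of 4.42. Other genes went the other way, with medians of 4.2 with and 3.98 without this element.

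CpG content moved with MOF peaks across the genome, and the set is rich in CpG. The median number of CpG dinucleotides within 500 bp of the principal start was 67 in the set, 45 in other genes and 68 in other genes with a peak. Among other genes, the share with a Mof+/+ peak rose over 4 bands of CpG content with like numbers of genes from 7.34% to 29.1%, 62.3% and 73.6%. In the band with 46 to 72 CpG, 45 of 47 members had a peak (95.7%, 85.8 to 98.8), and in the band with 73 to 180 CpG, 26 of 27 (96.3%, 81.7 to 99.3), so the intervals lay above the shares of other genes of like CpG content. With 14 to 45 CpG, 4 of 6 members had a peak, and the 1 member with fewer, Rpl3l, had none. Sites of the enzyme used to cut the chromatin were about as frequent around starts of the set (median 25) as of other genes (24).

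**Figure D5:**
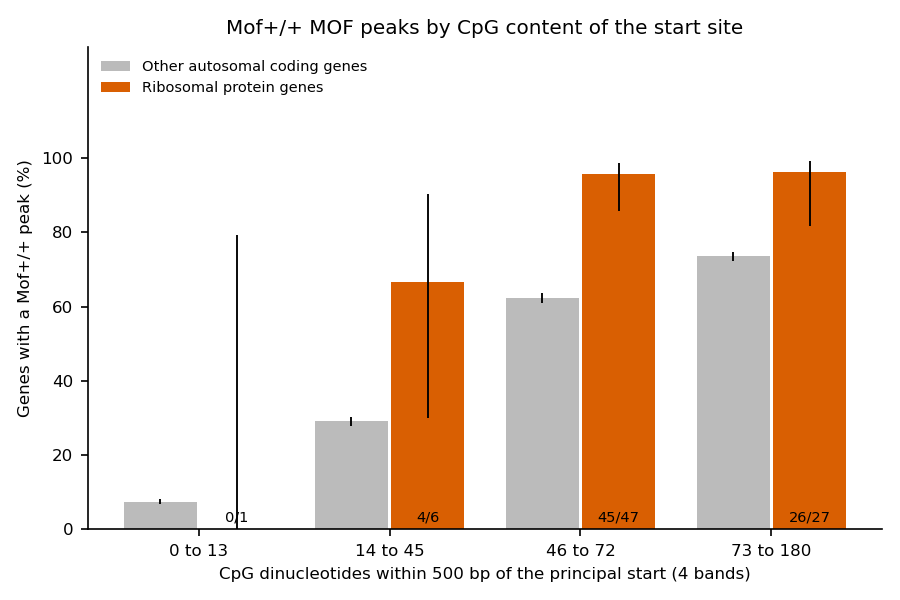
Share (%) of genes with a Mof+/+ peak by band of the number of CpG dinucleotides within 500 bp of the principal start, for other autosomal coding genes (grey) and ribosomal protein genes (orange, with counts), with Wilson 95% intervals. The share of other genes climbs from 7.34% to 73.6%, and the ribosomal protein genes reach 95.7% and 96.3% in the upper bands.

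The remaining ribosomal proteins, which the rule leaves out because they are X-linked or carry other symbols, were few. Of 7 such genes, 6 had a Mof+/+ peak (85.7%, 48.7 to 97.4), with a median fold of 4.09. Rps4x had 4.87 (3.10 to 7.32) and Rack1, a scaffold on the small subunit, 4.41 (2.86 to 6.53). Rpl36a had 3.76 (2.24 to 5.97), Fau, a fusion with a ubiquitin-like protein, 2.89 (1.78 to 4.48), and Rpl10 2.88 (1.59 to 4.86). Rpl39 had no peak. None of the 7 had a Mof+/- peak.

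Other genes of protein synthesis gave somewhat lower shares and, in part, lower median folds. Translation factors and their partners had a Mof+/+ peak in 17 of 19 genes (89.5%, 68.6 to 97.1), with a median fold of 4.42 and a range from 9.51 at Eef1a1, which brings aminoacyl-tRNA to the ribosome, to 2.46 at its exchange factor subunit Eef1d. Genes of ribosome biogenesis had a peak in 25 of 31 (80.6%, 63.7 to 90.8) with a median fold of 3.54, from 6.19 at Ncl, nucleolin, to 2.74 at Gar1, a protein of the H/ACA snoRNPs. Mitochondrial ribosomal protein genes, whose products form a separate ribosome, had a peak in 63 of 78 (80.8%, 70.7 to 88.0) with a median fold of 3.49 and a median width of 611 bp. Proteasome subunit genes, a further set of housekeeping genes with fixed numbers of subunits, had a peak in 31 of 39 (79.5%, 64.5 to 89.2) with a median fold of 4.09. The intervals of these shares overlap that of all 81 cytosolic ribosomal protein genes. For the 73 core genes (90.5 to 99.2) the interval lay above those of the mitochondrial ribosomal protein and proteasome subunit genes. The core leaves out paralogues, while those sets were taken whole by symbol, so this comparison is not on like terms.

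The one Mof+/- peak of the set lay at Rpl30, which encodes a protein of the large subunit. In Mof+/+ the Rpl30 peak was 1345 bp wide with a fold of 3.75 (2.38 to 5.64, 21 fragments) and a summit at -246 bp, upstream of the start. The Mof+/- peak was 372 bp wide with a fold of 4.60 (2.65 to 7.51, 14 fragments) and a summit at -187 bp, inside the span of the Mof+/+ peak. The intervals overlap, and the folds rest on different backgrounds, 4.87 and 2.26. Rpl30 was not among the strongest members in Mof+/+, as 59 of the 75 had a higher fold. For the other 80 genes no Mof+/- peak was listed within 1 kb of a start, which for the list as a whole held for all but 285 genes. Over all 81 genes, the median distance from a start to the nearest Mof+/- peak was 1017136 bp, and 3 genes had one within 10 kb. These distances were not taken over all genes, so they do not show whether the set differs. With a window of 3000 bp, 1.23% of the set and 1.75% of all genes had a Mof+/- peak. In the gene lists of this report, the other Mof+/- peaks were at Ubtf of ribosome biogenesis, Psmd3 of the proteasome and the B cell marker Pax5, named here after their values were seen, with folds of 3.22, 3.46 and 3.99.

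Of the 75 members with a Mof+/+ peak, 1 had a peak that overlapped a Mof+/- peak (1.33%), against 276 of 8894 genes with a peak (3.10%). The Mof+/- list was short, 731 peaks against 19773, and its background at a summit was lower (median 2.26 against 3.53 fragments). Where the background was at its lowest level, a Mof+/- peak had at least 11 fragments at the summit and a median of 14.0. The Mof+/+ peaks of all 75 members were at least as significant as the weakest Mof+/- peak (-log10 p-value of 4.72). With that limit on the Mof+/+ list, 92.6% of the set and 37.4% of all genes had a peak. Without it the share of all genes was 42.7%. When the Mof+/+ list was reduced to its 716 strongest peaks, as many as the Mof+/- list holds on the assembled chromosomes (a choice made after seeing the data), 4 members kept a peak (4.94%), against 3.29% of all genes. Lower MOF occupancy, fewer sequenced fragments and differences between the libraries cannot be told apart from the 2 lists.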

How the data were processed

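MOF ChIP-seq peaks of visceral WAT were taken from 1 list per genotype. According to the methods of the study, snakePipes mapped paired-end reads to GRCm38, and the authors called peaks with MACS2 (version 2.1.1.20160309.3 in the submitters' processing notes) against input at a q-value of 0.1. The deposited values are the fold enrichment at the summit, a ratio, its −log10 p-value and −log10 q-value, and the position of the summit. The methods name a merging of peaks within 1000 bp, and the lists stand before that step. H3 libraries were not analysed here. Members and gene lists were chosen with earlier results of these data known.

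Each gene was given the peak of highest fold within 1 kb of any annotated transcript start (GENCODE M21, chromosomes 1 to 19). The principal start is that of the transcript ranked first by APPRIS, then transcript support level and length. Fragments and background at summits were recovered from fold and p-value, which solved 99.9% of Mof+/+ and 97.9% of Mof+/- peaks within 0.001 on the −log10 scale, and gave exact Poisson 95% intervals of the fold. Shares have Wilson 95% intervals. The lists hold no replicate values, so no test between genotypes was run from them, signal tracks were not analysed here, and reads are not independent molecules. Apart from members whose values are not reported here, the named genes are the 10 highest and 5 lowest by Mof+/+ fold, those without a Mof+/+ peak, those with a Mof+/- peak, the 5 widest, the paralogues, and 13 genes known for their function. Of other lists, the ribosomal proteins outside the rule and the highest and lowest by fold are named. Single values of 2 members and of 1 ribosomal protein gene outside the rule are not reported here, while counts and medians include them. Python 3.11.15, pandas 2.3.3, scipy 1.17.1 and pysam 0.24.0 were used, and the scripts were tested on simulated data.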

Additional observations from a re-analysis of the deposited data

How the results depend on the processing

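No paired analysis was possible because there is a single list for a genotype, with no replicate number in its columns, and for the same reason no replicate could be left out. Of 54 alternative values for the shares, the median fold, width and summit offset, 49 stayed within the 95% interval of the value reported (Wilson for shares, order statistics over the members for medians), and no value changed sign. The share of members with a Mof+/+ peak rose from 92.6% to 97.3% without the paralogues. It fell to 66.7% when peaks near another coding start were left out and to 4.94% in the list reduced to its strongest peaks, both chosen after seeing the data, and both leave fewer peaks by construction. It stayed at 92.6% with windows of 500 and 3000 bp and at a q-value of 0.01, and was 90.1% at 0.001. The median fold of all genes with a peak, 3.98, was 4.19 at a q-value of 0.01 and 4.40 at 0.001, against 4.39 and 4.41 for the members. The median summit offset of members against all genes, 74 bp against 59 bp, was 60 against 58 with a window of 500 bp and turned to 49 against 56 with the nearest summit. The members' offset rose from 74 bp to 215 bp when the peak was both chosen by and measured from the principal start and to 137 bp from starts of protein-coding transcripts. With 15 to 32 fragments at a summit, differences in fold between single members are mostly within counting error.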
